A study of Mus musculus with 4 samples.

Results

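The epidermal growth factor (EGF) family was followed in mouse mammary organoids by single-cell RNA sequencing. The 10 genes were chosen by symbol, of 32285 listed in the count matrices: the ligands Areg, Ereg, Hbegf, Tgfa, Btc and Nrg1 and the receptors Egfr, Erbb2, Erbb3 and Erbb4. All 10 symbols were found in both matrices. The organoids came from mammary fat pads, freed of lymph nodes, of virgin mice aged 8 to 9 weeks. They were cultured in Matrigel (MATR), in a soft matrix (SOFT), in collagen (COL1) or in a stiff matrix (STIFF). The cultures of a pool are named by the sample titles, while a separate group label calls the whole COL1 and STIFF pool stiff and the whole MATR and SOFT pool soft. The titles were followed here. The labels gave no genotype, strain or added agent, and did not say whether animals were pooled. Cells of COL1 and STIFF shared 1 channel of a droplet chip and cells of MATR and SOFT shared the other, with hashtag antibodies to tell the cultures of a channel apart.

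Each condition was 1 culture, so no difference could be tested, and all intervals are 95% intervals that cover counting error only. COL1 against MATR and STIFF against SOFT also compare channels, so that a difference of culture and of channel cannot be told apart there. Which tag belonged to which culture is not in the sample labels and was taken from how the matrices were named. If those names were exchanged, each comparison within a channel would turn round. STIFF and SOFT carried hashtag 2 and COL1 and MATR hashtag 1, so tag and culture cannot be told apart either. The COL1 and STIFF pool held 133608252 unique molecular identifiers (UMIs, counts of captured transcript molecules) in 10615 barcodes, and the MATR and SOFT pool held 131036333 in 8767. Quality filters kept 9568 and 7945 barcodes, of which 19 barcode sequences were shared by the pools. By their tags, 1563 cells came from COL1 and 2451 from STIFF, and 2333 from MATR and 1941 from SOFT. A level is the summed UMIs of a gene over a group of cells, given as CPM, its count per 1000000 UMIs of those cells.

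Cells were clustered without the 10 genes, and clusters were named from marker lists. The basal-like class held 230, 193, 180 and 77 cells in COL1, STIFF, MATR and SOFT, in that order. The luminal-like cells fell into a hormone receptor (HR)-positive class of 530, 1078, 1245 and 1024 cells and an HR-negative class of 177, 189, 311 and 220. There were 164, 148, 105 and 82 fibroblast-like cells, which also carried pericyte markers at 566 (COL1), 429 (STIFF), 747 (MATR) and 484 (SOFT) summed CPM against 13526 to 19926 for fibroblast markers. Immune-like cells, led by C1qa, Fcer1g and Il1b, numbered 149, 249, 157 and 258. Class sizes depended on how tags were assigned. Under the relative tag rule, an alternative listed with the processing, the basal-like class held 313, 644, 301 and 338 cells. The HR-negative class then held 415, 680, 844 and 736. Every marker of a class had UMIs in that class in every condition. Markers were not confined to their own class. HR-negative markers summed to 5805 to 9623 CPM in the basal-like class, against 36290 to 48101 CPM in their own. Basal markers, a list with Acta2 and Tagln, summed to 2314 to 3759 CPM in the fibroblast-like class, against 7098 to 8983 CPM in their own. With finer clustering a cluster with fibroblast and pericyte markers also carried basal markers, and which cells these UMIs came from was not tested. The part of such RNA in the levels of these classes was not tested, except for luminal keratins, as given beside Areg. Clusters with markers of both luminal classes (1005 cells), of low depth (85 cells) and with cycling, basal and HR-negative markers (408 cells) stayed unnamed.

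EGF family ligands are made as membrane-bound precursors and are released by proteases such as ADAM17. Areg, Tgfa and Egf bind EGFR, Nrg1 binds ERBB3 and ERBB4, and Hbegf, Btc and Ereg bind both EGFR and ERBB4. ERBB2 binds no ligand and serves as a partner, while ERBB3 has little kinase activity and signals through its partners. In the mammary gland, amphiregulin (Areg) is induced by oestrogen in HR-positive cells and acts on EGFR of neighbouring cells, the stroma included, during ductal growth.

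The 250 bases before the start of Areg and Egfr are shown because the contrast between the classes described next rests on this ligand and its receptor. They were chosen after their levels were seen. Capitals mark letters that match a cyclic AMP response element (TGACGTCA, searched on both strands) and a TATA box (TATAAA, searched as transcribed). The sequences and gene positions are from RefSeq in the build GRCm38.p6.
Areg, chr5:91139349-91139598, plus strand: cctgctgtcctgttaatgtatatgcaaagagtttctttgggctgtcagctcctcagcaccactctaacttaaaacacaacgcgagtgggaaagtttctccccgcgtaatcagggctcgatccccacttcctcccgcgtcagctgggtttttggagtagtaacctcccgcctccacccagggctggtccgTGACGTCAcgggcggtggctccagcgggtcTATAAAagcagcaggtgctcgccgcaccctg
Egfr, chr11:16751953-16752202, plus strand: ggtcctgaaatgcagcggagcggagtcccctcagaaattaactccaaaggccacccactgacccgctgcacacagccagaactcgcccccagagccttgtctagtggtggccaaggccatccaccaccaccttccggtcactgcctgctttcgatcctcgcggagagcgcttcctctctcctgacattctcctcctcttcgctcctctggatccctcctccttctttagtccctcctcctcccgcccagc
In Areg the response element began 61 bases and the TATA letters 31 bases before the start. Of 32851 promoters in the table, 1.55% held TGACGTCA and 7.59% held TATAAA in the searched windows. Promoters were in the table for 6 of the 10 genes, and Tgfa, Btc, Egfr, Erbb2 and Erbb4 held neither motif. None of the 6 held an AP-1 site (TGANTCA, both strands), which 6.75% of promoters did. Ereg (chr5:91074617-91093649), Areg (chr5:91139599-91148432) and Btc (chr5:91357261-91402994) lie on the same chromosome, with 45950 bases between Ereg and Areg and 208829 between Areg and Btc. Tgfa lies at chr6:86195038-86275744 and Nrg1 at chr8:31807452-32891609. The receptors lie at chr11:16752203-16913907 (Egfr), chr11:98412484-98437716 (Erbb2), chr10:128567523-128589635 (Erbb3) and chr1:68031884-69108576 (Erbb4).

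Areg was highest in the HR-positive class in all 4 conditions. Its level there was 2921 CPM in COL1 (interval 2880 to 2962), 3493 CPM in STIFF (3464 to 3523), 3126 CPM in MATR (3100 to 3152) and 2741 CPM in SOFT (2714 to 2767). STIFF stood highest and SOFT lowest, with intervals that did not overlap, yet no ratio between conditions reached 1.5-fold. The ratio of STIFF over SOFT was 1.27-fold (1.26 to 1.29) and COL1 over STIFF 0.836-fold (0.823 to 0.850). The HR-positive class was from 4.0 to 8.02 times the class next to it. Of all Areg UMIs, HR-positive cells held 68.2% for COL1, 61.8% for STIFF, 77.9% for MATR and 83.3% for SOFT, while they held 28.9%, 29.1%, 40.5% and 39.8% of the UMIs of all genes.

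The HR-negative class, the other luminal class, had the lowest Areg of the 5 classes in each condition: 62.8 CPM in COL1, 145 CPM in STIFF, 39.9 CPM in MATR and 69.1 CPM in SOFT. With clustering at resolution 1.0 the class of that name had 869, 1154, 732 and 509 CPM, and there it took in a cluster of 973 cells with HR-positive markers and a median doublet score of 0.121. Cells were also thinned to 3000 UMIs each, which kept 518, 1067, 1228 and 1018 HR-positive and 176, 189, 308 and 218 HR-negative cells of COL1, STIFF, MATR and SOFT. An Areg UMI was then found in 84.6%, 90.0%, 85.0% and 81.2% of HR-positive cells. In HR-negative cells, the class of the lowest Areg level, it was found in 9.66%, 13.8%, 8.12% and 12.4%. Unthinned, the shares were 91.7% to 95.1% of HR-positive cells (median depths 10362 to 12970.5 UMIs) and 31.5% to 46.0% of HR-negative cells (15297 to 28286.5 UMIs). The median cell of the HR-positive class held 25 (COL1), 43 (STIFF), 34 (MATR) and 22 (SOFT) Areg UMIs. In the HR-negative class the median cell held 0. Markers of HR-positive cells summed to 306 (COL1), 422 (STIFF), 243 (MATR) and 302 (SOFT) CPM in the HR-negative class, highest and lowest in the same conditions as Areg, and their part in its Areg level was not tested.

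The HR-positive class was made of 3 clusters whose share differed by condition. Cluster 2, led by Klk1 and Defb14, held 230 of the COL1, 792 of the STIFF, 911 of the MATR and 270 of the SOFT cells of the class. Cluster 3, led by Reg3b and Calcb, held 211, 272, 175 and 519, and cluster 4, led by Muc13, Ido1 and Epgn, held 89, 14, 159 and 235. Areg in cluster 2 was 3678 CPM in COL1, 3542 CPM in STIFF, 3290 CPM in MATR and 3693 CPM in SOFT. In cluster 4 it was 1482 CPM in COL1, 1391 CPM in MATR and 1741 CPM in SOFT, below clusters 2 and 3 in each of these conditions, and 3273 CPM in the 14 STIFF cells. In cluster 3 it was 2682 CPM in COL1 and 2678 CPM in SOFT, against 3374 CPM in STIFF and 3685 CPM in MATR. The order of conditions over the whole class, with SOFT lowest, was therefore not the order within cluster 2.

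**Figure D1:**
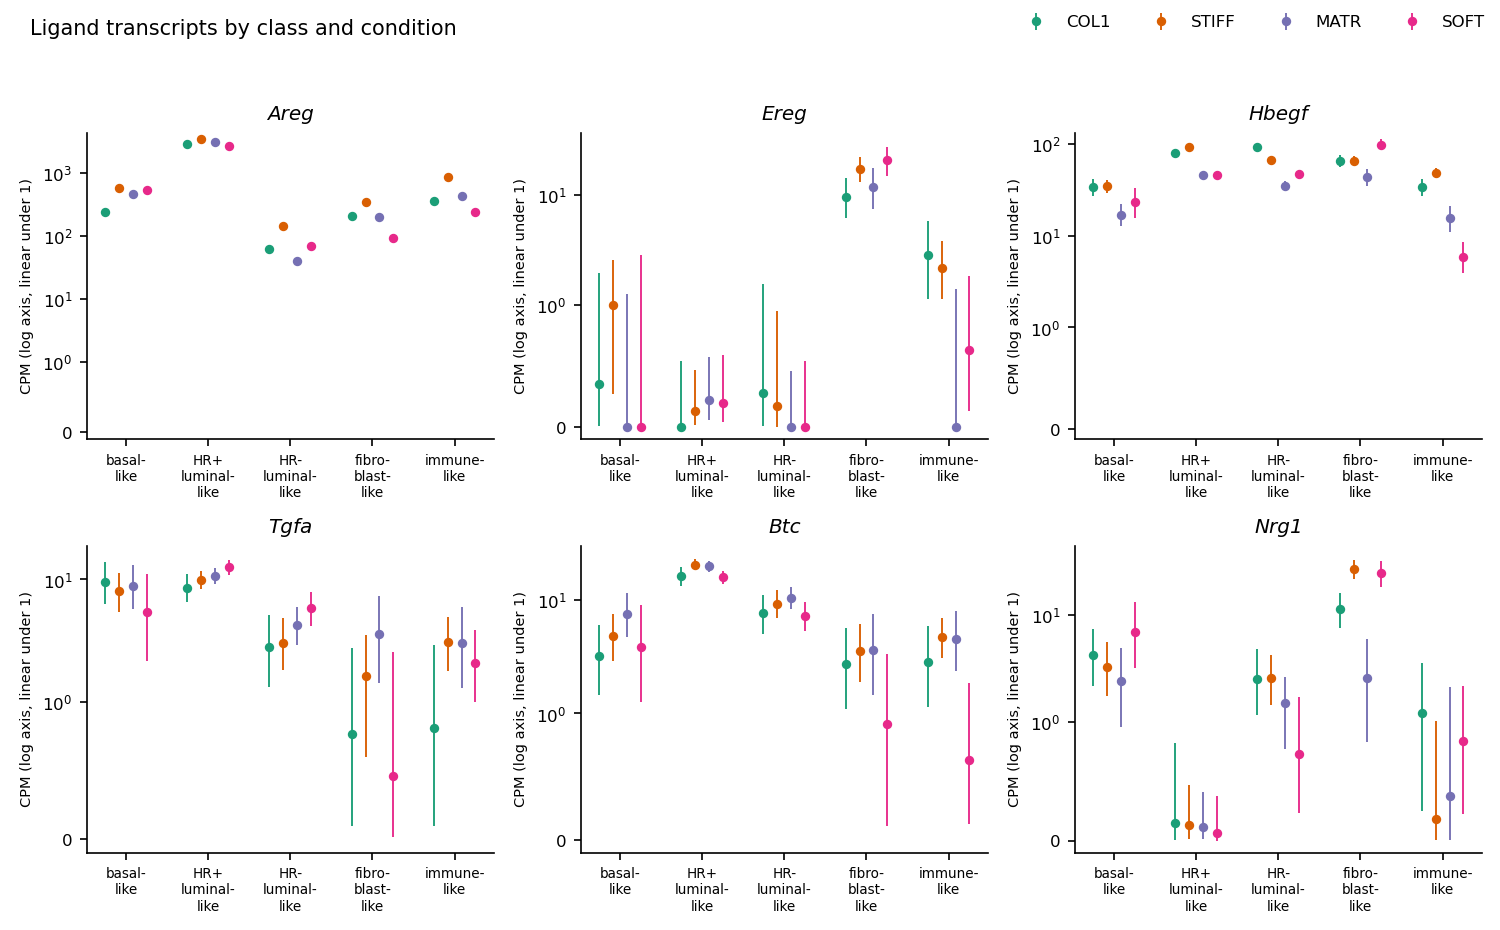
Level of each ligand transcript (CPM, log axis that is linear under 1) in the 5 classes, with 1 point for each condition and exact Poisson 95% intervals for counting error. Areg stands highest in HR-positive luminal-like cells at 2741 to 3493 CPM, while Ereg and Nrg1 are highest in fibroblast-like cells.

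Areg UMIs were also counted in the basal-like class (240, 589, 468 and 545 CPM in COL1, STIFF, MATR and SOFT), in the fibroblast-like class (214, 356, 202 and 93.7 CPM) and in the immune-like class (364, 874, 430 and 239 CPM). The luminal keratins Krt8, Krt18 and Krt19 were counted there too, at a summed level of 2053, 4072, 3557 and 4154 CPM in the basal-like class, 1295, 2845, 1892 and 1384 CPM in the fibroblast-like class and 2128, 5007, 3135 and 1464 CPM in the immune-like class. The median cell held 0 Areg UMIs in each of these classes and conditions, except for 1 in STIFF immune-like cells. A single cell held 52.8% of the Areg UMIs of COL1 fibroblast-like cells.

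Cells with more than 500 CPM of the 3 luminal keratins were left out of these classes as an added alternative, 782 cells in all. Areg in the cells that remained was 24.7 CPM in COL1, 16.9 CPM in STIFF and 13.4 CPM in MATR in the basal-like class. It was 19.3, 18.3, 15.6 and 12.5 CPM in fibroblast-like cells of COL1, STIFF, MATR and SOFT, and 19.5, 21.5, 18.7 and 20.8 CPM in immune-like cells. The levels of the fibroblast-like and immune-like classes then lay within 12.5 to 21.5 CPM, with overlapping intervals between conditions. Basal-like cells of SOFT numbered 31 after this step, under the minimum of 50, and held 3 Areg UMIs.

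**Figure D2:**
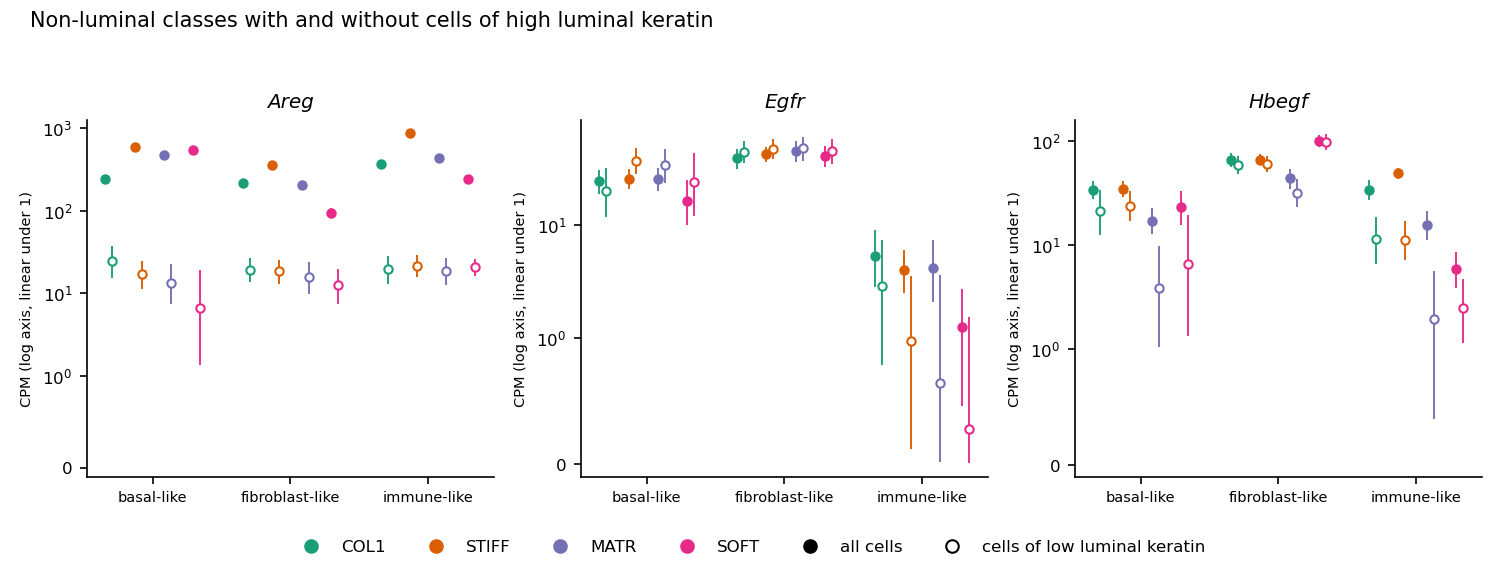
Level of Areg, Egfr and Hbegf (CPM, log axis that is linear under 1) in the basal-like, fibroblast-like and immune-like classes, over all cells (filled) and over cells with at most 500 CPM of luminal keratins (open), with exact Poisson 95% intervals. Open Areg points lie at 24.7 CPM or below in every class and condition, while Egfr in fibroblast-like cells lies at 38.6 CPM or above over both sets of cells. The open SOFT basal-like point rests on 31 cells.

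Hbegf, the heparin-binding ligand, was counted in every class and had no fixed highest class. In HR-positive cells it was 79.9 CPM in COL1 (73.3 to 86.9), 92.5 CPM in STIFF (87.7 to 97.4), 45.6 CPM in MATR (42.5 to 48.9) and 45.8 CPM in SOFT (42.4 to 49.3). Both cultures of the first channel stood above both of the other, and MATR and SOFT were alike within their intervals. In HR-negative cells it was 93.7 CPM in COL1, 67.3 CPM in STIFF, 35.1 CPM in MATR and 46.7 CPM in SOFT. Basal-like cells had 33.8, 34.7, 17.1 and 23.1 CPM and immune-like cells 33.8, 48.9, 15.5 and 5.88 CPM in the same order. The immune-like values were 11.5, 11.2, 1.94 and 2.49 CPM once cells of high luminal keratin were left out. The basal-like values were then 21.2, 23.8, 3.84 and 6.57 CPM, with 4 UMIs in MATR and 3 in the 31 cells of SOFT. Over all kept barcodes of the HR-positive class, tagged or not, Hbegf was 87.0 CPM in the COL1 and STIFF channel and 45.6 CPM in the MATR and SOFT channel.

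Fibroblast-like cells did not follow that split. Their Hbegf was 65.3 CPM in COL1 (55.8 to 75.9), 66.0 CPM in STIFF (58.0 to 74.9), 43.6 CPM in MATR (34.8 to 53.9) and 99.2 CPM in SOFT (86.4 to 113). SOFT stood above the other 3, and Hbegf in the fibroblast-like class of SOFT was the highest of the 20 class and condition values. Without cells of high luminal keratin the values were 59.0, 60.3, 31.9 and 97.6 CPM. Myeloid markers summed to 1661 CPM in the SOFT fibroblast-like class and to 179 to 729 CPM in the others, and their part in the Hbegf level was not tested. The immune-like cells of SOFT themselves had the lowest of the 20 values (3.91 to 8.50 CPM).

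Tgfa and Btc, both EGFR ligands, reached at most 20.3 CPM in any class, and neither passed 1.5-fold between conditions in HR-positive cells. Btc was highest in HR-positive cells, at 15.9 CPM in COL1, 20.3 CPM in STIFF, 19.6 CPM in MATR and 15.7 CPM in SOFT, 1.89 to 2.20 times the HR-negative class, which came next. Tgfa was 8.56, 9.93, 10.7 and 12.6 CPM in HR-positive cells and 9.50, 8.00, 8.87 and 5.39 CPM in basal-like cells. The intervals of these classes overlapped in all 4 conditions. The basal-like value of SOFT rested on 7 UMIs (2.17 to 11.1). HR-negative cells had 2.80, 3.07, 4.24 and 5.84 CPM of Tgfa, and fibroblast-like and immune-like cells 0.459 to 3.59 CPM. Btc was 3.17 to 7.51 CPM in basal-like cells and 0.630 to 4.73 CPM in fibroblast-like and immune-like cells.

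Ereg (epiregulin) was a transcript of the fibroblast-like class. It was 9.66 CPM in COL1 (25 UMIs, 6.25 to 14.2), 17.2 CPM in STIFF (63 UMIs, 13.2 to 22.0), 11.8 CPM in MATR (23 UMIs, 7.48 to 17.7) and 20.7 CPM in SOFT (45 UMIs, 15.1 to 27.7). STIFF and SOFT were above COL1 and MATR, with some overlap of the intervals. The fibroblast-like class held 71.4%, 75.0%, 85.2% and 81.8% of the Ereg UMIs of COL1, STIFF, MATR and SOFT. Immune-like cells had 2.85, 2.18, 0 and 0.630 CPM of Ereg, and the epithelial classes at most 0.9999 CPM in any condition. Without cells of high luminal keratin the fibroblast-like values were 10.2, 24.1, 15.6 and 29.1 CPM.

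Nrg1 (neuregulin 1), the ligand of ERBB3 and ERBB4, was also highest in the fibroblast-like class. Its level there was 11.2 CPM in COL1 (29 UMIs, 7.501 to 16.1), 26.7 CPM in STIFF (98 UMIs, 21.7 to 32.6), 2.57 CPM in MATR (5 UMIs, 0.833 to 5.99) and 24.3 CPM in SOFT (53 UMIs, 18.2 to 31.9). STIFF and SOFT were alike within their intervals, COL1 was lower and MATR lowest. In MATR the 5 UMIs came from 5 cells, and the basal-like class had a like level, 2.39 CPM. In STIFF 1 cell held 24.5% of the UMIs. Without cells of high luminal keratin the values were 12.9, 24.6, 3.54 and 34.6 CPM, in the same order of conditions except that SOFT was then highest. Basal-like cells had 4.22, 3.25, 2.39 and 6.94 CPM of Nrg1 in COL1, STIFF, MATR and SOFT, and HR-negative cells 2.52, 2.56, 1.498 and 0.730 CPM. HR-positive cells had at most 0.148 CPM of Nrg1 and immune-like cells at most 1.22 CPM.

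Egfr, the receptor of Areg, was highest in fibroblast-like cells, at 38.6 CPM in COL1 (31.4 to 47.0), 42.01 CPM in STIFF (35.6 to 49.2), 45.2 CPM in MATR (36.2 to 55.6) and 40.4 CPM in SOFT (32.4 to 49.8), with intervals that overlapped between all conditions. Basal-like cells followed with 24.3, 25.5, 25.6 and 16.2 CPM, and HR-negative cells with 16.0, 22.5, 15.4 and 13.1 CPM. The basal-like intervals lay below the fibroblast-like ones in every condition, and overlapped the HR-negative ones except in MATR. HR-positive cells held 1 (COL1), 9 (STIFF), 3 (MATR) and 2 (SOFT) Egfr UMIs, or 0.148, 0.588, 0.169 and 0.135 CPM. Immune-like cells had 5.29, 4.003 and 4.16 CPM in COL1, STIFF and MATR and 1.26 CPM in SOFT. The class with the highest Areg thus had the lowest Egfr of the 5 classes in each condition. Without cells of high luminal keratin Egfr was 44.0 to 47.5 CPM in fibroblast-like cells and 20.02 (COL1), 37.0 (STIFF) and 33.6 (MATR) CPM in basal-like cells. In STIFF the basal-like and fibroblast-like intervals then overlapped (28.1 to 47.7 and 38.4 to 57.6 CPM). They also overlapped in MATR (23.4 to 46.7 and 36.8 to 60.3 CPM) and in SOFT, with 31 basal-like cells. Only in COL1 did the basal-like interval still lie below the fibroblast-like one.

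Erbb3 followed the luminal classes. In HR-positive cells it was 83.7 CPM in COL1 (76.97 to 90.9), 91.7 CPM in STIFF (87.0 to 96.6), 90.9 CPM in MATR (86.5 to 95.4) and 102 CPM in SOFT (96.5 to 107), and in HR-negative cells 56.6, 63.8, 65.8 and 67.6 CPM. The HR-positive level was 1.382 to 1.502 times the HR-negative one, with no overlap of the intervals. Basal-like cells had 19.0, 26.0, 26.6 and 34.7 CPM of Erbb3 and immune-like cells 12.6, 25.8, 19.3 and 13.0 CPM. Fibroblast-like cells had 10.0, 18.0, 9.24 and 11.9 CPM, which was 2.68, 1.93, 0.709 and 3.46 CPM without cells of high luminal keratin. Immune-like cells then had 3.61, 1.95, 2.58 and 2.49 CPM. Basal-like cells then had 4.71, 4.39 and 8.64 CPM in COL1, STIFF and MATR, and 17.5 CPM in the 31 cells of SOFT. In both classes these values rested on 4 to 9 UMIs a condition. Within the HR-positive class Erbb3 was 62.9 to 89.2 CPM in cluster 3, 84.6 to 103 CPM in cluster 2 and 91.7 to 133 CPM in cluster 4.

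Erbb2, the partner without a ligand, was highest in the same class by a smaller margin. It was 40.5 CPM in COL1 (35.8 to 45.5), 30.3 CPM in STIFF (27.6 to 33.2), 35.6 CPM in MATR (32.9 to 38.5) and 39.6 CPM in SOFT (36.5 to 43.0) in HR-positive cells. HR-negative cells had 27.8, 26.4, 29.96 and 29.6 CPM, and the intervals of the luminal classes overlapped in STIFF and MATR and not in COL1 and SOFT. Basal-like cells had 14.6 to 18.7 CPM, and fibroblast-like and immune-like cells 5.67 to 13.5 CPM. Without cells of high luminal keratin immune-like cells had 0.646 to 2.16 CPM of Erbb2, from 1 to 3 UMIs a condition. Fibroblast-like cells then had 2.14 to 8.50 CPM and basal-like cells 8.76 to 16.5 CPM.

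Erbb4 was near the limit of detection. Its highest levels were 1.40, 1.36, 2.12 and 1.02 CPM, in HR-negative cells of COL1, STIFF, MATR and SOFT, from 5, 8, 17 and 7 UMIs. No UMI was counted in basal-like cells of COL1, STIFF and MATR, where the interval allows up to 1.30, 0.922 and 1.26 CPM. The other class and condition values were 0.771 CPM or lower, from at most 7 UMIs.

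**Figure D3:**
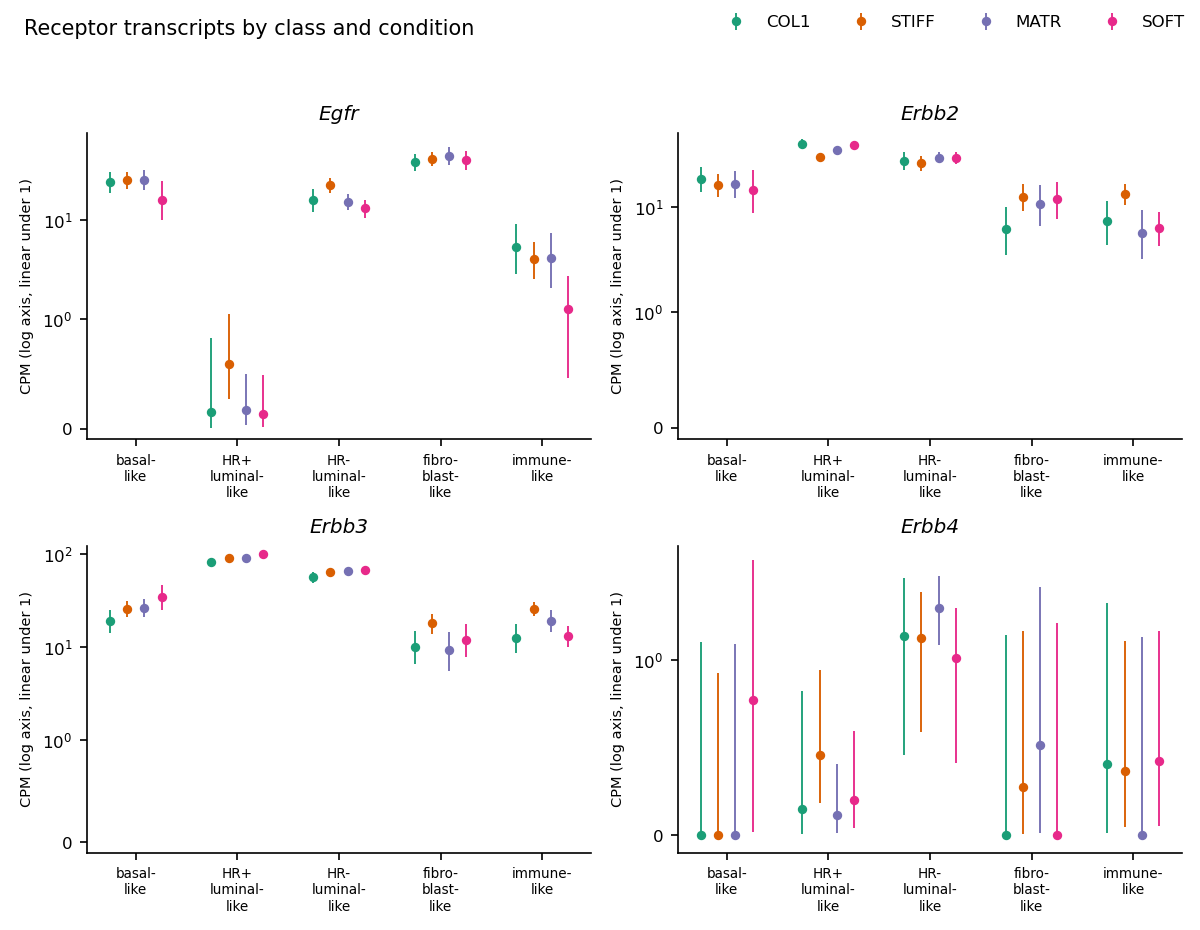
Level of each receptor transcript (CPM, log axis that is linear under 1) in the 5 classes, with 1 point for each condition and exact Poisson 95% intervals for counting error. Egfr is highest in fibroblast-like cells and lowest in HR-positive cells, Erbb3 and Erbb2 are highest in HR-positive cells, and no Erbb4 point lies above 2.12 CPM.

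Of the 9 members that reached 5 CPM in some class, 7 had the same highest class in all 4 conditions. Areg, Btc, Erbb2 and Erbb3 were highest in HR-positive cells and Ereg, Nrg1 and Egfr in fibroblast-like cells. Hbegf and Tgfa changed their highest class, and Erbb4 did not reach the minimum. Under the relative tag rule, and with thinning, the count was 6. In the unnamed cluster with markers of both luminal classes, Areg (1255 to 1739 CPM) and Egfr (6.06 to 9.49 CPM) were both present. That cluster had a median doublet score of 0.126, against 0.0312 to 0.0527 in the clusters of the 5 classes.

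**Figure D4:**
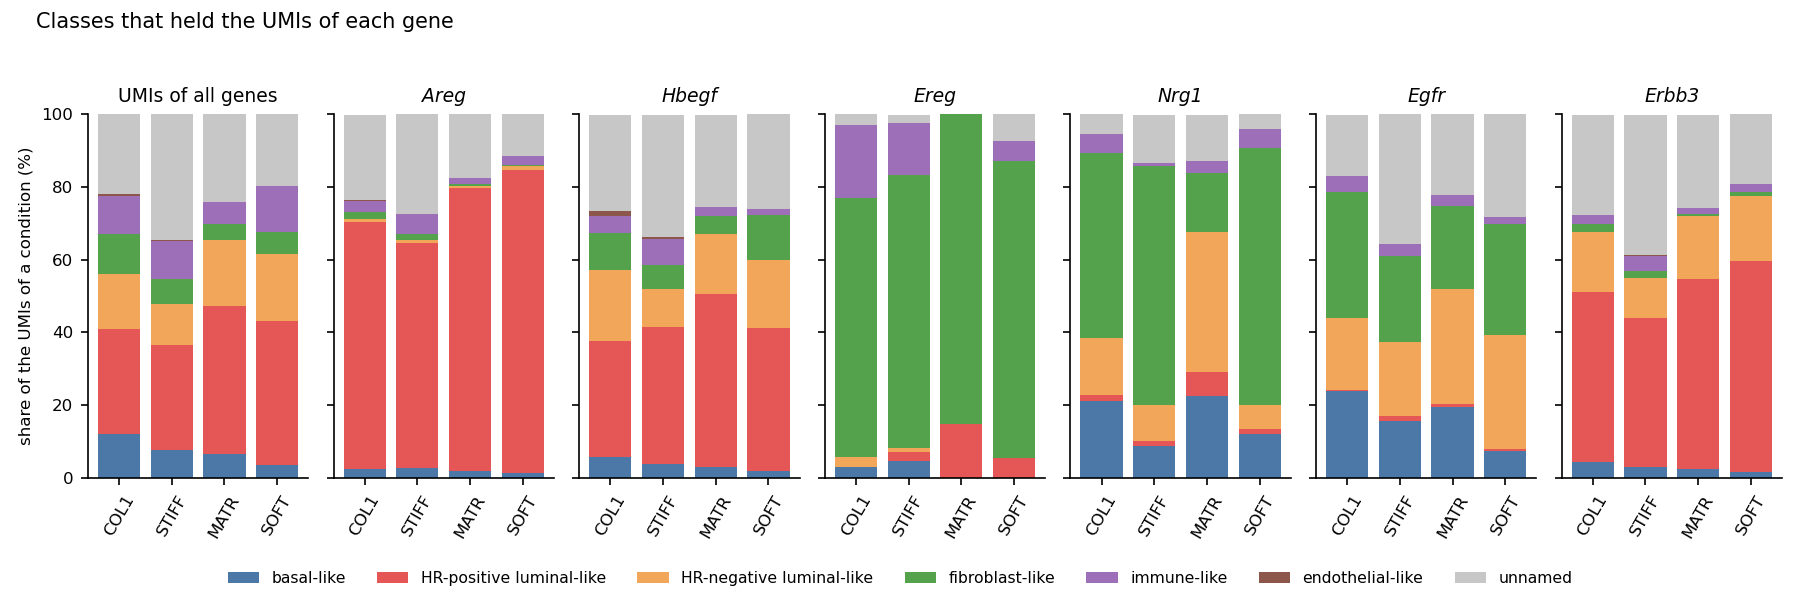
Share (%) of the UMIs of all genes and of 6 family members that each class held in each condition, as stacked bars from 0 to 100. HR-positive cells held 61.8% to 83.3% of Areg and 0.346% to 1.38% of Egfr, and fibroblast-like cells held 71.4% to 85.2% of Ereg.

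Between conditions a member was called different within a class when its CPM differed at least 1.5-fold. Pairs of a member and a class counted as measured with 5 CPM or more on average, 30 or more UMIs in the conditions together and 50 or more cells in each. COL1 over STIFF called 10 of 29 pairs, all lower in COL1, where 11.4% of all measured gene and class pairs were called, 7.29% as lower. MATR over SOFT called 9 of 30, 5 higher and 4 lower, against 11.6%. COL1 over MATR called 10 of 30, 6 higher and 4 lower, against 10.2%. STIFF over SOFT called 12 of 29, 11 higher in STIFF and 1 lower, against 14.3%, with 9.8% higher. The directions of these calls moved with the setting. COL1 over MATR had 11 higher and 1 lower without high doublet scores, 6 and 0 under the relative tag rule and 7 and 1 under the margin tag rule. MATR over SOFT had 0 higher and 4 lower without cells of high luminal keratin, and STIFF over SOFT 4 and 3 with thinning. Leaving out those cells left 31 basal-like cells of SOFT, under the minimum, so no basal-like pair with SOFT could be called. In the main setting 2 basal-like pairs were higher in MATR, Egfr and Tgfa, and 2 in STIFF, Egfr and Hbegf. The 5 classes share libraries, so pairs of a gene are not independent. Over all assigned cells 7 members were measured, with median log2 ratios of -0.02, 0.06, -0.35 and 0.28 in the same order. Over all genes measured the medians were -0.03, -0.03, 0.03 and 0.03. The calls were Hbegf for COL1 over MATR and Hbegf and Egfr for STIFF over SOFT. Of all measured genes 4.19%, 6.06%, 7.91% and 5.73% were called in the same order. Unnamed cells held 34.5% of the UMIs of STIFF and 19.7% of those of SOFT. The part of class shares in these calls was not tested. Of the 41 calls, 11 stayed past the fold in the same direction under every one of the 11 alternatives run, of which the one without a minimum level changes no ratio. Leaving out cells of high luminal keratin took no cell from the luminal classes, so it could not move the 4 of these calls that lie there. In 5 of the 11 the pair also met the minimum under every alternative. The 11 were 7 of Hbegf, 3 of Nrg1 in fibroblast-like cells, and Areg in HR-negative cells for STIFF over SOFT. At resolution 1.0 the HR-negative class took in a further cluster, as given above. Its Areg ratio there rested on 21601 (STIFF) and 5506 (SOFT) UMIs, against 853 and 473 in the main setting, and so largely on other cells.

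Without cells of high luminal keratin, 23 of the 41 pairs still met the minimum of a measured pair, and 15 of these passed the fold in the same direction. For Areg between COL1 and STIFF, all 3 calls in non-luminal classes were lost at this step. The log2 ratio went from -1.30 to 0.55 in basal-like cells, from -0.74 to 0.074 in fibroblast-like cells and from -1.26 to -0.14 in immune-like cells. For STIFF over SOFT the same step took Areg from 1.92 to 0.56 in fibroblast-like cells and from 1.87 to 0.051 in immune-like cells. The 5 calls of Erbb3, all in fibroblast-like or immune-like cells, rested on at most 9 UMIs a condition after this step, under the minimum, and their log2 ratios had the opposite sign.

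Within the COL1 and STIFF channel, 5 of the 7 measured members were lower in COL1 than in STIFF in fibroblast-like cells and 0 higher, where 9.99% of all measured genes were lower. They were Nrg1, Ereg, Areg, Erbb2 and Erbb3. Luminal keratins summed to 1295 CPM in COL1 and 2845 CPM in STIFF in this class. Without cells of high luminal keratin the log2 ratio was 0.074 for Areg and 0.47 for Erbb3, the latter from 5 and 4 UMIs. Erbb2 was then 2.14 and 5.79 CPM, from 4 and 12 UMIs. Nrg1 and Ereg, given above without those cells, were still lower in COL1. Nrg1 was 0.419-fold (0.267 to 0.640). Ereg was 0.562-fold (0.339 to 0.906). Ereg fell short of the fold with a pseudocount of 10 CPM (log2 ratio -0.47). Pericyte markers, given above, were higher in COL1 than in STIFF in this class, and their part in these ratios was not tested. At resolution 1.0, where a cluster with fibroblast and pericyte markers (72, 41, 49 and 24 cells of COL1, STIFF, MATR and SOFT) stayed unnamed and so left the class, the log2 ratios were -1.08 for Nrg1 and -0.84 for Ereg. Egfr did not pass the fold in any class, with 0.919-fold in fibroblast-like cells (0.708 to 1.19), but in basal-like cells it did without cells of high luminal keratin (log2 ratio -0.88, from 17 and 59 UMIs). Hbegf passed in no class either.

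Within the MATR and SOFT channel, 3 ligands were lower in MATR in fibroblast-like cells and 1, Areg, was higher (2.16-fold), of 7 measured members, where 6.1% of all measured genes were lower and 8.91% higher. Nrg1 was 0.105-fold (0.0329 to 0.262), Hbegf 0.440-fold (0.338 to 0.568) and Ereg 0.571-fold (0.330 to 0.964). Pericyte markers were higher in MATR than in SOFT there, and at resolution 1.0 the log2 ratios were -3.22 for Nrg1 and -0.88 for Ereg. Areg lost its call without cells of high luminal keratin (log2 ratio 0.32). Ereg fell short of the fold under the relative tag rule (log2 ratio -0.45) and with a pseudocount (-0.49). Egfr in basal-like cells was 1.58-fold higher in MATR (0.964 to 2.70, from 75 and 21 UMIs), which fell to a log2 ratio of 0.09 under the relative tag rule. Hbegf in immune-like cells was 2.63-fold higher in MATR (1.59 to 4.42), and this turned without cells of high luminal keratin, at a log2 ratio of -0.36.

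**Figure D5:**
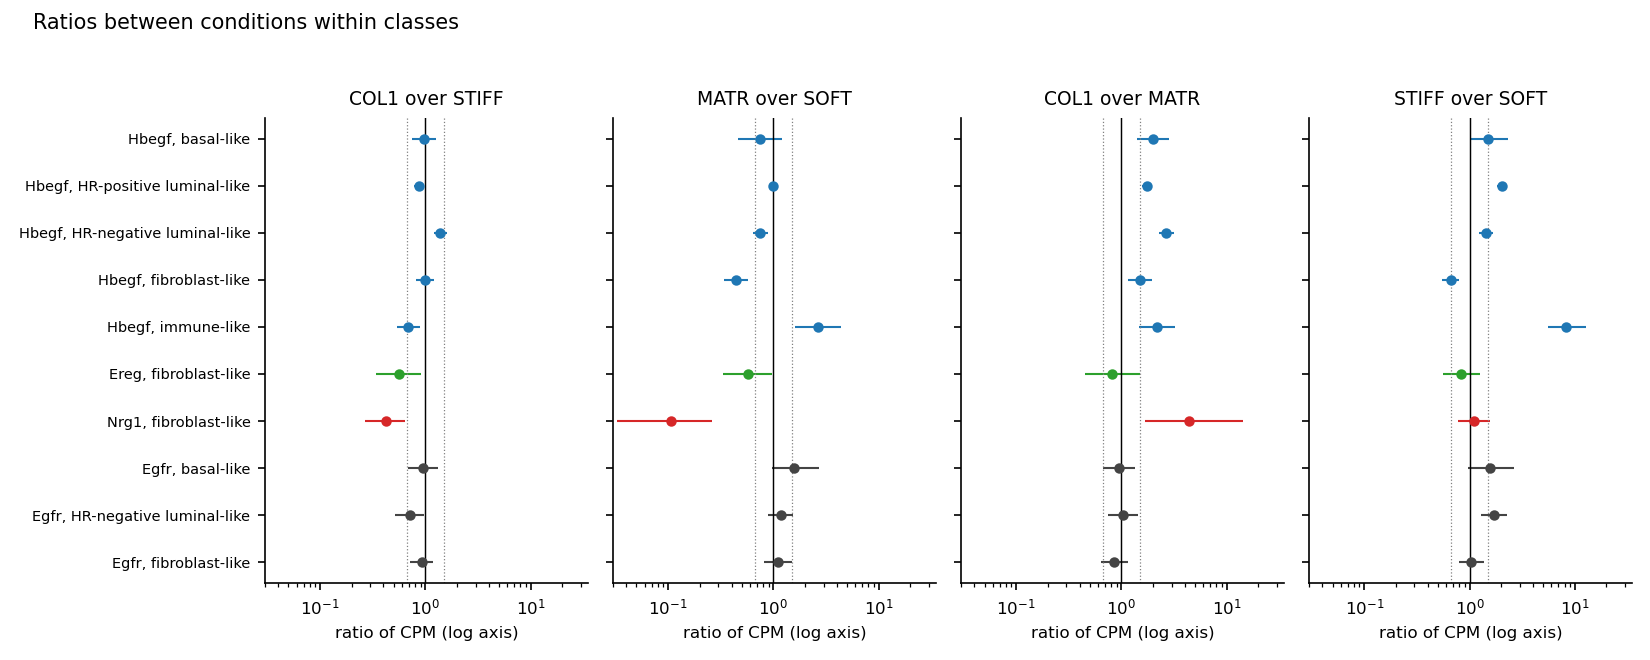
Ratio of CPM between conditions (log axis) for Hbegf in 5 classes, Ereg and Nrg1 in fibroblast-like cells and Egfr in 3 classes, with exact 95% intervals for counting error; dotted lines mark 1.5-fold either way. Nrg1 in fibroblast-like cells lies furthest to the left in MATR over SOFT, at 0.105-fold, and Hbegf lies above 1 in all classes in COL1 over MATR.

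Between the channels Hbegf passed the fold in 4 classes in each comparison. Hbegf for COL1 over MATR was 1.75-fold in HR-positive cells (1.57 to 1.96), 2.67-fold in HR-negative cells (2.27 to 3.14), 1.98-fold in basal-like cells (1.39 to 2.85) and 2.18-fold in immune-like cells (1.48 to 3.25). Without cells of high luminal keratin the basal-like ratio rested on 18 and 4 UMIs and the immune-like ratio on 16 and 3. Hbegf for STIFF over SOFT was 2.02-fold in HR-positive cells (1.84 to 2.22), 1.503-fold in basal-like cells (1.01 to 2.31) and 8.32-fold in immune-like cells (5.63 to 12.8, or 2.17 on the log2 scale without cells of high luminal keratin), and 0.665-fold in fibroblast-like cells (0.551 to 0.803). The fibroblast-like value stayed past the fold under 7 of the 11 alternatives and the basal-like value under 6 of the 10 with a value. The smallest log2 ratios were -0.28 (relative tag rule) and 0.14 (without high doublet scores). Nrg1 in fibroblast-like cells was 4.37-fold higher in COL1 than in MATR (1.67 to 14.4), and Areg in HR-negative cells was 2.11-fold higher in STIFF than in SOFT (1.88 to 2.36), where markers of HR-positive cells were also higher, at 422 against 302 CPM. In immune-like cells, scaling by trimmed means would lower log2 ratios of STIFF over SOFT by 0.22 and raise those of COL1 over STIFF by 0.14, and it moved those of the other classes and comparisons by less than 0.1. Egfr in HR-negative cells was 1.71-fold higher in STIFF than in SOFT (1.30 to 2.26), with a log2 ratio of 0.30 under finer clustering. In these values culture and channel cannot be told apart.

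Of 52 other genes of the pathway, 44 to 46 were measured over all assigned cells in each comparison, and few passed the fold. COL1 over STIFF called 2 of 46, both higher (background 4.19%), MATR over SOFT 3 of 45, 2 higher and 1 lower (6.06%), COL1 over MATR 1 of 44, lower (7.91%), and STIFF over SOFT 4 of 46, 3 higher and 1 lower (5.73%). Their median log2 ratios were -0.0020, -0.03, 0.08 and 0.05, beside -0.03, -0.03, 0.03 and 0.03 over all genes measured. The named genes were Epgn, Fosl1, Dusp5, Dusp6, Fos and Ccnd1. None of the ligand-shedding proteases or signal relay genes passed the fold over all assigned cells, in 5 to 6 and 16 to 17 measured genes. Within classes some did. For COL1 over STIFF 2 of 6 proteases were lower in fibroblast-like cells, where 9.99% of genes were lower. In immune-like cells 2 of 17 relay genes were higher and 2 lower, where 17.4% of genes were called. In other classes and comparisons at most 1 gene of either list was called each way.

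Epgn, which encodes the EGFR ligand epigen, was measured in HR-positive cells at 30.7 CPM in COL1, 14.4 CPM in STIFF, 18.8 CPM in MATR and 38.9 CPM in SOFT. STIFF was lowest and SOFT highest. COL1 over STIFF was 2.13-fold (1.75 to 2.58) and MATR over SOFT 0.483-fold (0.421 to 0.554) in this class. Cluster 4, which Epgn helped to lead, held 14 of 1078 HR-positive cells in STIFF and 235 of 1024 in SOFT. Epgn was not left out of the clustering, so its level in that cluster is not a separate observation.

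Dusp6, a phosphatase that acts on ERK and whose transcript ERK signalling induces, was lower in SOFT than in either MATR or STIFF. Over all assigned cells it was 85.0 CPM in COL1, 85.1 CPM in STIFF, 70.1 CPM in MATR and 43.3 CPM in SOFT. MATR over SOFT was 1.62-fold (1.52 to 1.72), and STIFF over SOFT 1.96-fold (1.85 to 2.08). By class, Dusp6 was 119, 113 and 57.8 CPM in basal-like cells of STIFF, MATR and SOFT. It was 26.7, 30.4 and 15.8 CPM in HR-positive cells, 181, 122 and 72.6 CPM in HR-negative cells and 57.8, 45.7 and 29.4 CPM in fibroblast-like cells. Immune-like cells differed, at 78.4, 124 and 84.2 CPM. Dusp5 over all assigned cells was 1.60-fold higher in MATR (1.51 to 1.70) and 1.72-fold higher in STIFF (1.63 to 1.82) than in SOFT.

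Of 14 feedback inhibitors and receptor turnover genes, all measured in fibroblast-like cells for MATR over SOFT, 6 were higher in MATR and 0 lower, where 8.91% of all measured genes were higher. They were Lrig1, Spry1, Spry4, Spred1, Dusp6 and Cblb, at 1.52- to 1.80-fold. For STIFF over SOFT in basal-like cells 5 of 13 were higher and 0 lower, where 10.9% were. In fibroblast-like cells for STIFF over SOFT the count was 1 of 14, Dusp6, where 9.45% were, and in immune-like cells 5 of 11 were higher and 0 lower, where 19.6% were. For COL1 over MATR in fibroblast-like cells 1 was higher and 4 lower of 14, where 8.4% of genes were lower, and for COL1 over STIFF in immune-like cells 1 was higher and 5 lower of 11, where 12.8% were lower. In the other comparisons within a class at most 3 were higher and at most 2 lower. These class counts were looked at after the values over all cells were seen, and were not repeated without cells of high luminal keratin. In immune-like cells the luminal keratins summed to 2128 CPM in COL1, 5007 CPM in STIFF and 1464 CPM in SOFT. Of the basal-like cells, 104 of 193 in STIFF and 46 of 77 in SOFT were over the keratin limit. The part of luminal RNA in these counts was not tested. Fosl1, an AP-1 subunit, was 1.88-fold higher in COL1 than in STIFF over all assigned cells (1.51 to 2.34). Fos was 1.89-fold higher in STIFF than in SOFT (1.88 to 1.91), and Ccnd1, which encodes cyclin D1, 0.607-fold in COL1 against MATR (0.578 to 0.638). Class shares differed between conditions: HR-positive cells were 33.9%, 44.0%, 53.4% and 52.8% of the cells of COL1, STIFF, MATR and SOFT. The part of class shares in the Fosl1, Fos and Ccnd1 ratios was not tested.

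Genes with the pattern most like each member were named by Pearson correlation of log2(CPM + 10) over the 20 class and condition values, among 8192 genes. These values share 4 cultures and 2 libraries and are a description only. Areg was most like Pcp4 (0.997), Fam25c (0.993) and AW112010 (0.985), and Erbb3 most like Cldn3 (0.993), Cmtm8 (0.985) and Krt18 (0.981). Egfr was most like Nynrin (0.985), Fkbp11 (0.981) and Ttc28 (0.975), and Ereg most like Sod3 (0.981), Prokr2 (0.977) and Rgs16 (0.972). Erbb2 was most like Rhou (0.968), Gstt2 (0.966) and Grb7 (0.963), which encodes an adaptor protein that binds ERBB2. Btc followed Rnf145 (0.965), Faap20 (0.959) and Cdk19 (0.953), and Nrg1 followed Acta1 (0.928), Mcpt8 (0.885) and Slc6a8 (0.885). For Hbegf the nearest genes, Zc3h15 (0.875), Nbea (0.824) and Tmem41b (0.795), were less alike.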

How the data were processed

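Cell Ranger 5.0.0, Seurat 4.2.0 and the build mm10 are named, with no role, per the submitters' processing notes. The deposited matrices hold raw UMI counts per gene and barcode. The protocol in the labels names reagents of V2 and of V3 chemistry. The transcript and hashtag entries of a pool held the same gene counts. Barcodes were kept from 1000 UMIs and 500 genes on, with mitochondrial UMIs of 15% or less. HTODemux (Seurat 5.3.0, R 4.3.3, quantile 0.99) assigned the tags: 5249 and 3394 kept barcodes of the COL1 and STIFF and of the MATR and SOFT pool had no tag, and 305 and 277 with both tags were left out as doublets. Scrublet called 0 barcodes, so its scores served only for an alternative.

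Cells were clustered with scanpy 1.11.5 (1997 variable genes without members, 30 components, 15 neighbours, Leiden resolution 0.5). Naming used the marker list that had, on average, the highest log2 ratio over other clusters, if 3 markers reached 20 CPM and 2-fold, and gave no name if a further list reached 0.5 of that value. Averaging over all markers of a list with 10 CPM added was set after a first scoring had left fibroblast and endothelial clusters unnamed. UMIs were summed per class and condition. Levels have exact Poisson, ratios exact conditional binomial and shares Clopper-Pearson 95% intervals. With 1 culture per condition no test was made. The genes of interest, the marker and pathway lists and the rules were chosen with earlier results of these data known. All 10 members are named, up to 3 pathway genes a side per comparison over all assigned cells, and the 3 most alike genes of each member that reached 20 CPM. Alternatives were a relative and a margin tag rule, stricter cell filters, leaving out the 5% highest doublet scores, members in the clustering, resolution 1.0, TMM scaling (edgeR 4.0.16), thinning to 3000 UMIs, a pseudocount of 10 CPM, no minimum level and, added after seeing the data, leaving out cells of high luminal keratin.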

Additional observations from a re-analysis of the deposited data

Results flagged for a closer look

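Ratios past 1.5-fold that ran in opposite directions in different classes were flagged, and the differences between classes were not tested. Areg for COL1 over MATR had a log2 ratio of -0.97 in basal-like cells and 0.65 in HR-negative cells, but the basal-like value was 0.88 without cells of high luminal keratin and 0.85 without high doublet scores, the direction of HR-negative cells. Areg for MATR over SOFT had -0.79 in HR-negative cells, 1.11 in fibroblast-like cells and 0.85 in immune-like cells. The immune-like value was -0.15 without cells of high luminal keratin, and the HR-negative value 0.52 at resolution 1.0, where that class had 732 and 509 CPM of Areg. Hbegf for MATR over SOFT had -1.19 in fibroblast-like cells and 1.40 in immune-like cells, the latter -0.36 without cells of high luminal keratin, the direction of fibroblast-like cells. Hbegf for STIFF over SOFT had 0.59 in basal-like, 1.01 in HR-positive, -0.59 in fibroblast-like and 3.06 in immune-like cells. A further antibody row, hashtag 3, which no culture was assigned to, held 13315 counts for COL1 with STIFF and 13477 for MATR with SOFT. Hashtag 1 held 3475654 and 3965116 counts and hashtag 2 held 14594095 and 9491804.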

How the results depend on the processing

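The count of members with the same highest class was 7, and 6 under the relative tag rule and with thinning. The member and class pairs past 1.5-fold, 10 for COL1 over STIFF, 9 for MATR over SOFT, 10 for COL1 over MATR and 12 for STIFF over SOFT, moved by over 1.5 times as follows. For COL1 over STIFF the count was 6 under the relative tag rule, 5 under the margin rule, 5 with thinning, 6 with a pseudocount and 4 without cells of high luminal keratin. For COL1 over MATR it was 6 under the relative rule, 5 with thinning and 6 with a pseudocount. For MATR over SOFT it was 4 without cells of high luminal keratin. For STIFF over SOFT it was 7 with thinning, 6 with a pseudocount and 5 without those cells. Pathway genes past the fold, 2 for COL1 over STIFF, became 0 under the margin rule, 1 without high doublet scores, 0 with a pseudocount and 4 with no minimum. For MATR over SOFT the 3 became 1 with a pseudocount and 6 with no minimum. For COL1 over MATR the 1 became 2 with thinning and 3 with no minimum, and for STIFF over SOFT the 4 became 7 with no minimum. Fewer genes are measured under a minimum, and a pseudocount shrinks the ratios of low genes by construction. With thinning, 17 of the 41 called pairs still met the minimum of a measured pair, and these 17 passed the fold in the same direction. Without cells of high luminal keratin the basal-like class of SOFT fell under the minimum of 50 cells. Its 2 calls in each comparison with SOFT then dropped out. For the other settings, and beyond this, the cause was not tested.

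Over the 41 pairs and 11 alternatives, 17 values turned, several of them on few UMIs. This counts values and not pairs. Areg in basal-like cells and Erbb2 in fibroblast-like cells, both for COL1 over MATR, turned under more than 1 alternative. Without cells of high luminal keratin the log2 ratios were 0.88 (COL1 over MATR) and 0.55 (COL1 over STIFF) for Areg in basal-like cells, 0.074 for Areg in fibroblast-like cells (COL1 over STIFF), -0.15 for Areg and -0.36 for Hbegf in immune-like cells (MATR over SOFT) and 1.15 for Erbb2 in immune-like cells (COL1 over STIFF). For Erbb3 they were 0.47 (COL1 over STIFF) and -0.84 (STIFF over SOFT) in fibroblast-like cells, and 0.48 (COL1 over MATR), 0.88 (COL1 over STIFF) and -0.35 (STIFF over SOFT) in immune-like cells. Without high doublet scores Areg and Btc in basal-like cells were 0.85 and 0.68 for COL1 over MATR. At resolution 1.0 Areg in HR-negative cells was 0.52 for MATR over SOFT, and Erbb2 in fibroblast-like cells 0.60 for COL1 over MATR, where the margin rule gave 0.059. Tgfa in basal-like cells was -0.15 under the relative rule for MATR over SOFT. No ratio was taken where a group held 0 UMIs and the limit of 3 UMIs lay above the other group's level. Counts of 5 UMIs for Nrg1 in fibroblast-like cells of MATR and of at most 17 for Erbb4 in any class limit what can be read from them. The log2 ratios of the SOFT basal-like class without cells of high luminal keratin were not computed, since 31 cells remained. No paired analysis was possible because each condition was 1 culture and no result comes from a test.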
